A study of Homo sapiens with 4 samples.

Results

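The genes described here encode the core machinery that makes and uses microRNAs: the 4 Argonaute proteins (AGO1 to AGO4, whose genes the array names EIF2C1, EIF2C2, EIF2C3 and EIF2C4), the 3 GW182 proteins (TNRC6A, TNRC6B and TNRC6C), the RNases DROSHA and DICER1, and the export receptor XPO5. They were chosen by name from these known roles, by a rule that uses no measured value, although earlier results of these data were known when the set was drawn up. They are 10 of the 36337 gene names on the array and were read by 15 of its 50599 probes, all of them among the 21474 probes tested.

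GIST-T1 is a cell line established from a human gastrointestinal stromal tumor. Cells were electroporated with 100 pmol of a synthetic miR-34a mimic or with the same amount of a nontargeting mimic, the negative control, and RNA was taken 48 h later. Each condition had 2 samples, and each sample was hybridized to its own one-color Agilent array, so the comparison rested on 4 arrays. The mimic is delivered as a ready-made duplex, so the arrays describe mRNA levels after its delivery in 1 line, and neither the microRNA itself nor any protein was measured.

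As background, DROSHA cuts the hairpin out of a primary microRNA transcript in the nucleus, XPO5 carries the hairpin to the cytoplasm, and DICER1 trims it to a duplex. An Argonaute protein keeps 1 strand of the duplex as a guide and pairs it with mRNAs, mostly through the seed at bases 2 to 8 of the guide. GW182 proteins bind the Argonaute and recruit the enzymes that shorten the poly(A) tail and remove the cap of the paired mRNA.

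The natural miR-34a guide and the other strand of its hairpin are shown first, because every difference below is between cells with and without a mimic of miR-34a. The sequence of the mimic itself was not given. They are followed by 2 microRNAs of the RefSeq table used here that share the seed of the guide. That table is not complete. All are written 5′ to 3′ as RefSeq lists them on GRCh38.p14, with the seed, bases 2 to 8, in capitals. The miR-34a guide comes from chr1:9151735-9151756 on the minus strand.
hsa-miR-34a-5p: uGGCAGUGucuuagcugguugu
hsa-miR-34a-3p: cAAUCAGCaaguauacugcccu
hsa-miR-449a: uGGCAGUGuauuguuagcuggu
hsa-miR-449b-5p: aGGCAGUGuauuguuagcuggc

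The 2 letter strings that pair with the miR-34a seed, CACTGCC and ACTGCCA, overlap in the letters ACTGCC and were searched on the strand of each probe, which reads as the mRNA does. At least 1 of them was present in 354 of the 50599 probes (0.7%) and in 0 of the 15 probes of the 10 genes. A probe holds 60 bases, so this says only that these letters were not in those windows.

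Expression is given throughout as the log2 signal relative to the 75th percentile of the same array, so 0 is that percentile and 1 unit is a doubling. A difference is the mean of the mimic arrays minus the mean of the negative control arrays, with its standard error (SE) and 95% interval from limma, a linear model that shares the estimate of spread over all probes tested. Adjusted p-values are Benjamini-Hochberg values over those 21474 probes. No probe on the array passed an adjusted p of 0.05 (0% of those tested, with a minimum of 0.0948), so the values below are described by their size, their interval and whether the arrays of the conditions overlapped. Each array had 58717 spots besides its controls, with 293 to 424 flagged as outliers and 0 saturated, and 41.8% to 45.2% of probes were well above background. KIT, ANO1, ETV1 and PRKCQ, which mark gastrointestinal stromal tumors, were well above background in all of their probes on all 4 arrays. PECAM1 (endothelium) and ALB (hepatocytes) were so on 0 arrays, PTPRC (leukocytes) on at most 2, and the EPCAM (epithelium) probe was above background on all 4 arrays at a log2 signal of no more than -1.69.

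All 15 probes of the 10 genes were well above background on all 4 arrays, with processed signals from 32.1 (TNRC6C) to 3623 (EIF2C2). None of the 15 was lower by more than 1.5-fold in mimic-transfected cells, against 4.8% of all probes tested, and none was higher by that much, against 2.11%. Among the probes that were, like these 15, well above background on all 4 arrays, the shares were 2.55% and 1.42%. The mimic and control arrays did not overlap in 6 of the 15 (40%), against 60.5% of all probes tested, with 4 below the control (30.1% of all probes) and 2 above it (30.4%). Of the 15, 9 were lower by any amount, against 51.5% of all probes. An unadjusted limma p under 0.05 was reached by 2 of the 15 (13.3%), XPO5 downward and TNRC6A upward, against 24.3% of all probes, split into 11.6% lower and 12.7% higher. The median size of the difference, regardless of sign, was 0.07 on the log2 scale over the 15 probes and 0.15 over all probes tested, and the signed medians were -0.02 and -0.0077. For 13 of the 15 probes the 95% interval lay inside a 1.5-fold difference in either direction, which held for 68.5% of all probes tested.

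**Figure D1:**
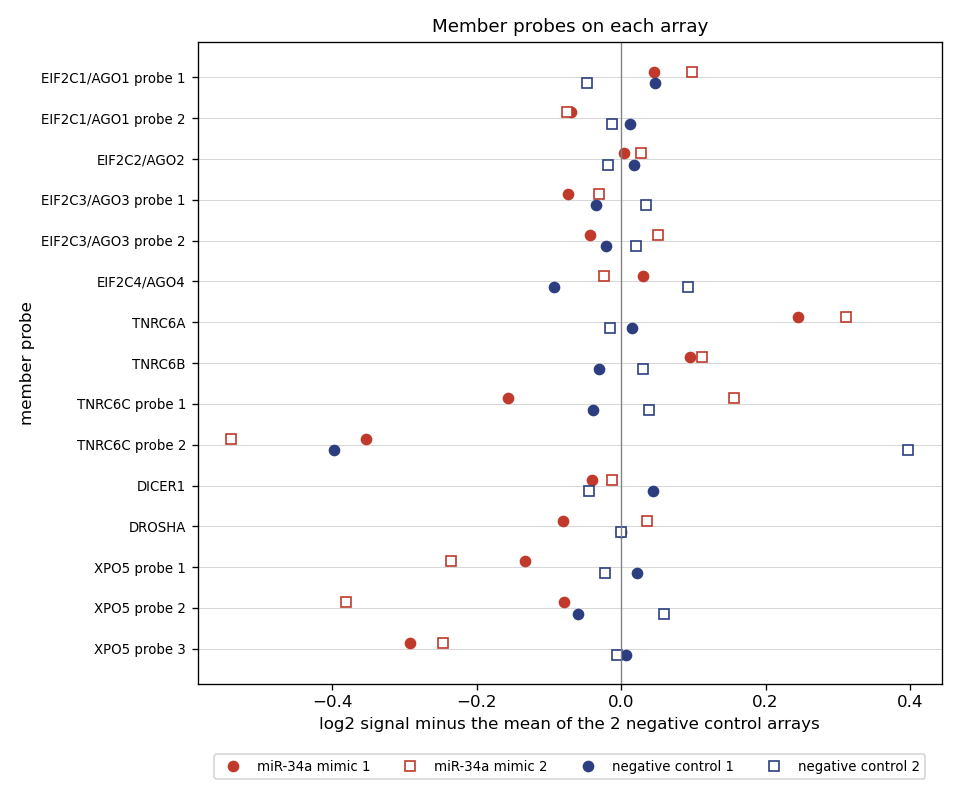
Log2 signal of each probe on each of the 4 arrays, with the mean of the 2 negative control arrays of that probe set to 0 (horizontal axis, log2 units). Red marks are miR-34a mimic arrays and blue marks negative control arrays, with filled circles for replicate 1 and open squares for replicate 2. Both mimic arrays sat above both control arrays for TNRC6A and TNRC6B and below them for the 3 XPO5 probes and EIF2C1 probe 2, and the control arrays stood farthest apart for TNRC6C probe 2.

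Over the 6 probes of the Argonaute genes the log2 differences between conditions ran from -0.07 to 0.07. The conditions were apart in 1 probe (16.7%), against 60.5% of all probes tested. All 6 intervals lay inside 1.5-fold, against 68.5% of all probes tested. EIF2C2 encodes AGO2, the Argonaute that can itself cut a paired mRNA. Its probe (A_23_P112159, hg19 chr8:141541947-141542006, minus strand) had a log2 signal of 4.61 and 4.63 on the mimic arrays and 4.62 and 4.59 on the control arrays. The values of the conditions interleaved. This probe was spotted 10 times on each array, which repeats the reading of a sample and adds no samples. The difference was 0.02 (SE 0.054, 95% interval -0.14 to 0.17, or 0.907-fold to 1.13-fold of the control level), with an adjusted p of 0.871 by limma. That interval rests on the spread between these samples, which limma estimates from this probe and from all probes tested. A t-test on this probe alone gave an SE of 0.021.

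The other 3 Argonaute genes lie beside each other on the plus strand of chromosome 1, between hg19 positions 36320420 and 36521611, in the order EIF2C4, EIF2C1, EIF2C3. EIF2C1 encodes AGO1 and was read by 2 probes. Probe 1 (A_33_P3380587, chr1:36386500-36386559) gave 0.74 and 0.79 with the mimic and 0.74 and 0.65 with the control, a difference of 0.07 (SE 0.065, adjusted p = 0.527 by limma). Probe 2 (A_33_P3402116, chr1:36389840-36389899) gave 4.28 and 4.28 with the mimic and 4.36 and 4.34 with the control, a difference of -0.07 (SE 0.052, adjusted p = 0.443 by limma). The conditions overlapped at probe 1 and did not at probe 2, and the differences had opposite signs, although that of probe 1 ran from 0.025 without control replicate 2 to 0.12 without control replicate 1. Probe 1 minus probe 2 was larger by 0.14 in mimic-transfected cells (SE 0.045), with a two-sided exact permutation p of 0.333, the smallest that 2 arrays against 2 allow, and 0.8 after adjustment over the 6 probe pairs compared.

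EIF2C3 encodes AGO3. Its probe 1 (A_33_P3244882, chr1:36439052-36439111) gave 2.64 and 2.69 with the mimic against 2.68 and 2.75, a difference of -0.05 (SE 0.060, 95% interval -0.23 to 0.12). Its probe 2 (A_23_P97021, chr1:36521552-36521611) gave 2.64 and 2.73 against 2.66 and 2.70, a difference of 0.0042 (SE 0.064, 95% interval -0.18 to 0.19). The conditions overlapped at both probes, and the difference of probe 1 ran from -0.087 without control replicate 1 to -0.018 without control replicate 2. EIF2C4 encodes AGO4 and was read by A_23_P23171 (chr1:36320420-36320479) at -1.26 and -1.31 with the mimic and -1.38 and -1.20 with the control. Here too the arrays interleaved, and the difference of 0.0029 (SE 0.088) had an interval from -0.25 to 0.26. The probes of different genes were distinct in sequence: the longest run shared by probes of any 2 of the 10 genes was 10 bases, and between Argonaute genes 7 bases.

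The estimates of the GW182 genes did not share a sign, although the intervals of both TNRC6C probes spanned 0 and included the TNRC6A estimate. Whether the genes differed in direction was not tested. TNRC6A was higher by 1.21-fold in mimic-transfected cells, TNRC6B was higher by a smaller amount whose interval included 0, and the TNRC6C probes were at 0 and below it. TNRC6A, a scaffold that binds Argonaute proteins through glycine-tryptophan repeats, was read by A_23_P349310 (chr16:24835610-24835669, plus strand). Its log2 signal was 0.58 and 0.64 with the mimic and 0.35 and 0.32 with the control. Both mimic arrays stood above both control arrays by more than the arrays of either condition differed from each other. The difference was 0.28 (SE 0.058, 95% interval 0.11 to 0.45, or 1.08-fold to 1.36-fold), with an unadjusted p of 0.0115 and an adjusted p of 0.127 by limma. In RNA from whole cultures, a change in every cell and a larger one in some cells cannot be told apart.

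TNRC6B (A_23_P6490, chr22:40719222-40719281, plus strand) gave 1.13 and 1.15 with the mimic and 1.01 and 1.07 with the control. The mimic arrays were again both above the control arrays, by a difference of 0.10 (SE 0.057, 95% interval -0.06 to 0.27, adjusted p = 0.340 by limma). TNRC6C probe 1 (A_33_P3302428, chr17:76101674-76101733, plus strand) gave 1.36 and 1.67 against 1.47 and 1.55. The control arrays lay between the mimic arrays, and the difference was 0.00 (SE 0.131, 95% interval -0.38 to 0.38). TNRC6C probe 2 (A_33_P3302423, chr17:76104813-76104872) gave -1.999 and -2.19 with the mimic and -2.04 and -1.25 with the control. Control replicate 2 stood apart from the other 3 arrays, and the difference of -0.45 (SE 0.309, 95% interval -1.35 to 0.45, adjusted p = 0.426 by limma) was -0.049 without that array and -0.84, past 1.5-fold, without control replicate 1. This probe had the widest interval of the 15, and its signal relative to probe 1 differed between conditions by 0.45 (SE 0.437, two-sided exact permutation p = 0.667).

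**Figure D2:**
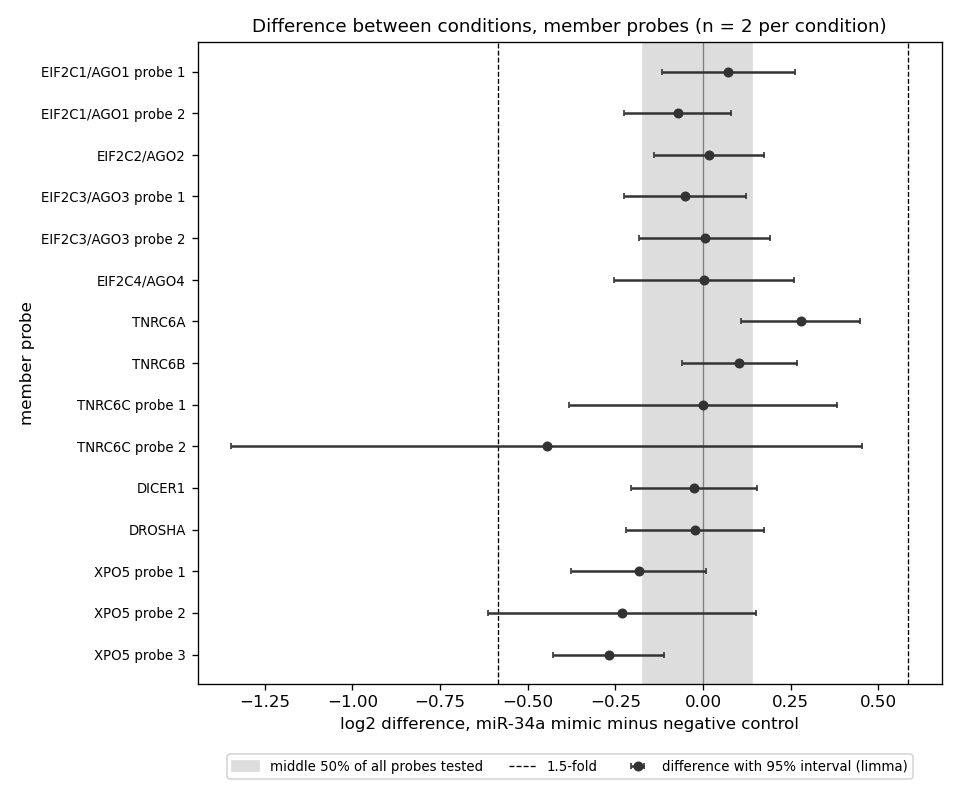
Difference between conditions for each probe (horizontal axis, log2 units, miR-34a mimic minus negative control), where points are estimates and bars 95% intervals from limma with 2 arrays per condition. The gray band holds the middle 50% of all probes tested and dashed lines mark 1.5-fold. The 6 Argonaute points lie between -0.07 and 0.07, TNRC6A is at 0.28, the 3 XPO5 points run from -0.27 to -0.18, and the intervals of TNRC6C probe 2 and XPO5 probe 2 cross a dashed line.

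Among the genes that process and export the hairpin, XPO5 was lower in mimic-transfected cells at all 3 of its probes, by 1.14-fold to 1.21-fold, whereas the RNase genes differed by less than their error. XPO5 encodes exportin 5, which carries hairpin precursors out of the nucleus with the GTPase RAN. Its 3 probes lie on the minus strand of chromosome 6. The mimic arrays were below the control arrays at each of them, which was so for 30.1% of all probes tested. At probe 3 (A_33_P3228366, chr6:43494424-43494483) the log2 signal was -0.093 and -0.048 with the mimic and 0.21 and 0.19 with the control. The conditions were well apart there, and the difference was -0.27 (SE 0.054, 95% interval -0.43 to -0.11, unadjusted p = 0.0103 and adjusted p = 0.124 by limma).

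At XPO5 probe 1 (A_23_P256855, chr6:43490583-43490642) the values were 1.20 and 1.10 with the mimic and 1.35 and 1.31 with the control, a difference of -0.18 (SE 0.066, 95% interval -0.38 to 0.0089, adjusted p = 0.217 by limma). At XPO5 probe 2 (A_33_P3228375, chr6:43491398-43491457) they were -1.51 and -1.81 against -1.49 and -1.37, a difference of -0.23 (SE 0.131, 95% interval -0.61 to 0.15, adjusted p = 0.355 by limma). At probe 2 mimic replicate 1 was almost level with control replicate 1, and the difference was -0.079 without mimic replicate 2 and -0.38 without mimic replicate 1. The differences of the 3 probes from one another ran from 0.04 to 0.09, each smaller than or near its SE of 0.076 to 0.185. The 3 probes read 1 transcript in the same RNA samples, so they repeat the measurement and are not independent samples.

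DICER1, the RNase that releases the mature duplex, was read by A_33_P3212490 (chr14:95552615-95552674, minus strand) at 3.31 and 3.34 with the mimic and 3.40 and 3.31 with the control. The conditions overlapped, with a difference of -0.03 (SE 0.062, 95% interval -0.21 to 0.15, adjusted p = 0.809 by limma). DROSHA, the nuclear RNase, was read by A_23_P133596 (chr5:31401473-31401532, minus strand) at 4.45 and 4.57 with the mimic and 4.53 and 4.54 with the control. The control arrays lay between the mimic arrays, and the difference was -0.02 (SE 0.068, 95% interval -0.22 to 0.17, adjusted p = 0.852 by limma). Of the 10 genes, DICER1 was the one with a microRNA gene (MIR3173) inside its RefSeq bounds.

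**Figure D3:**
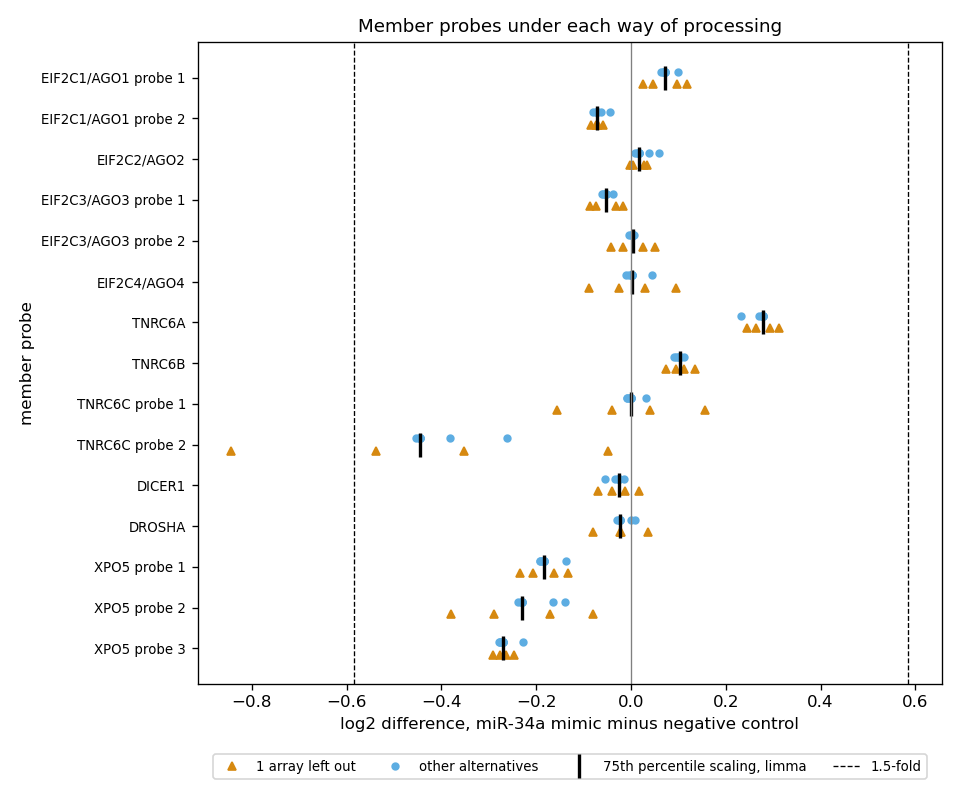
The same difference for each probe (horizontal axis, log2 units, miR-34a mimic minus negative control) under each way of processing, where black ticks are the values reported here, blue circles other scalings, filters or models, and orange triangles fits without 1 array. TNRC6A stayed between 0.23 and 0.31 and XPO5 probe 3 between -0.29 and -0.23, whereas TNRC6C probe 2 ranged from -0.84 to -0.049 depending on which array was left out.

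The differences of TNRC6A and XPO5 probe 3 held their direction under all 13 alternatives, from 0.23 to 0.31 and from -0.29 to -0.23. Both probes were followed because their unadjusted limma p was under 0.05 in the reported fit, as it was for 24.3% of all probes tested. It stayed under 0.05 for both in the limma fits that kept every array. Those fits reuse the same arrays, so this repeat is not independent evidence. The share of all probes at that p ranged there from 11.2% with no filter on dim probes to 27.9% with a variance trend. Fits that left out an array are described here by size alone.

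Genes that work with these proteins were read from 6 lists of known function, with the brightest tested probe of each gene. For comparison, over all 16192 gene names tested 4.83% were lower and 1.96% higher by more than 1.5-fold, 25% had an unadjusted limma p under 0.05, and the median difference was -0.0067. The microRNA biogenesis cofactors, which help DROSHA and DICER1, had 14 of 15 genes tested, with 8 lower, 6 higher, 0 past 1.5-fold at that probe, 2 at an unadjusted p under 0.05 (14.3%) and a median of -0.02. A dimmer probe of HNRNPA1, an RNA-binding protein, was past 1.5-fold, at -0.68 (SE 0.345, adjusted p = 0.319 by limma), against -0.05 at its brightest. Of them, DGCR8, the partner of DROSHA that grips the primary hairpin, differed by 0.07 (SE 0.103, adjusted p = 0.687 by limma). SRRT, which links the cap-binding complex to primary microRNA processing, differed by 0.26 (adjusted p = 0.135 by limma), although its other tested probes gave 0.03 and 0.10. The largest difference of that list was in ADARB1, an enzyme that edits adenosines in double-stranded RNA, at -1.40 and -1.66 with the mimic and -2.14 and -1.79 with the control, a difference of 0.43 (SE 0.172, adjusted p = 0.242 by limma).

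The list of Argonaute loading factors and partners, which holds the HSP90 chaperone system and RNA-binding companions, had 22 of 24 genes tested, with 12 lower and 10 higher, 5 at an unadjusted p under 0.05 (22.7%) and a median of -0.04. MOV10, an RNA helicase that associates with Argonaute proteins, was the 1 gene of the list past 1.5-fold. Its log2 signal was 0.77 and 0.54 with the mimic and 1.42 and 1.45 with the control. Both mimic arrays were far below both control arrays, a difference of -0.78 or 1.72-fold lower (SE 0.103, adjusted p = 0.0954 by limma), while the second MOV10 probe gave -0.24. FMR1, which encodes a translational repressor found with Argonaute, was at -0.41 (SE 0.191, adjusted p = 0.291 by limma), and its second probe gave -0.04.

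The deadenylation and decay list, the enzymes and adaptors that GW182 proteins recruit, had all 34 genes tested, with 18 lower, 16 higher, 0 past 1.5-fold at the brightest probe, 6 at an unadjusted p under 0.05 (17.6%) and a median of -0.01. Dimmer probes of 2 of its genes were past 1.5-fold. That of TNKS1BP1, which associates with the CCR4-NOT complex, was at -0.67 (SE 0.442, adjusted p = 0.407 by limma), against 0.04 at its brightest. That of GIGYF2, a translational repressor, was well above background on the control arrays but on 0 mimic arrays. With the mimic arrays set to the lowest signal of any probe well above background on them, it was at least 1.715-fold lower, a bound that was not tested. The limma fit used the dim mimic signals as read and gave -2.39 (SE 0.238, adjusted p = 0.0948), against a difference of 0.05 at the brightest GIGYF2 probe. BTG2, an antiproliferative protein that binds the CCR4-NOT deadenylase, gave 2.59 and 2.58 with the mimic and 3.03 and 3.07 with the control. The conditions were apart by much more than the replicates, a difference of -0.46 or 1.38-fold lower (SE 0.054, adjusted p = 0.0948 by limma). PAN3, a subunit of the PAN2-PAN3 deadenylase, was at -0.39 (SE 0.138, adjusted p = 0.210 by limma).

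The list of tailing, trimming and turnover factors had 14 of 17 genes tested, with 7 lower, 7 higher, 0 past 1.5-fold, 2 at an unadjusted p under 0.05 (14.3%) and a median of 0.02. Its largest differences were in TSN, a subunit of the nuclease that clears the passenger strand, at -0.27 (adjusted p = 0.145 by limma), and TRIM25, an RNA-binding ubiquitin ligase, at 0.20 (adjusted p = 0.180 by limma). The PIWI list holds the germline relatives of the Argonaute genes and their partners. Of its 14 genes, 10 were not tested because their probes stayed near background, among them PIWIL1, PIWIL2, PIWIL3 and PIWIL4. The other 4 were TDRD1, TDRD7, TDRKH and HENMT1, the last of which is also in the tailing list. Of these 4, 2 were lower and 2 higher, and 1 had an unadjusted limma p under 0.05 (25%). TDRKH, among the higher ones, was well above background on both mimic arrays but on only 1 control array. It was thus tested only through the mimic arrays, which favors a higher value. The list median was 0.08 over the 4 genes and -0.14 for those well above background on all 4 arrays. TDRD7, a Tudor-domain protein, was at 0.35 (SE 0.055, adjusted p = 0.102 by limma), and TDRD1, another Tudor-domain protein, at -0.28 (SE 0.239), with -1.44 (SE 0.917) at its other probe, where control replicate 2 stood apart. That other probe was well above background on both control arrays but on only 1 mimic array, so it was tested only through the control arrays.

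The list of microRNA host transcripts, in which microRNA hairpins lie as substrates of DROSHA, had 23 of 31 genes tested, with 18 lower and 5 higher (51.3% of all genes were lower) and a median of -0.17. An unadjusted limma p under 0.05 was reached by 10 of the 23 (43.5%), all of them lower, against 11.9% of all genes lower at that p, and 1 gene was past 1.5-fold. RefSeq bounds held a microRNA gene for 19 of the 23, of which 14 were lower and 8 reached that p (42.1%), with a median of -0.16. Among the other 4, none was found inside the bounds of DLEU1, HOTAIRM1 and MIR22HG in the tables used here. MIR143HG was not listed by that name among the RefSeq genes used here, so its bounds were not searched. That one gene past 1.5-fold was CTDSPL, which encodes a small phosphatase of the RNA polymerase II tail, at -0.07 and -0.20 with the mimic and 0.88 and 0.80 with the control. The conditions were far apart, a difference of -0.98 or 1.97-fold lower (SE 0.077, adjusted p = 0.0948 by limma). Its paralog CTDSP1 gave 5.19 and 5.10 with the mimic and 5.57 and 5.60 with the control, a difference of -0.44 or 1.36-fold lower (SE 0.063, adjusted p = 0.0954 by limma), with -0.16 at its second probe. The third paralog, CTDSP2, was singled out after its values were seen and was at -0.27 (SE 0.058, adjusted p = 0.130 by limma), with -0.26 at its second probe.

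The 3 CTDSP genes carry the miR-26 genes, shown here because the mature microRNAs share 1 seed (capitals, bases 2 to 8, RefSeq, GRCh38.p14). CTDSPL holds the copy at chr3:37969413-37969434, CTDSP2 that at chr12:57824658-57824679 and CTDSP1 that at chr2:218402657-218402677.
hsa-miR-26a-5p (CTDSPL and CTDSP2): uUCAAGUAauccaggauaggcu
hsa-miR-26b-5p (CTDSP1): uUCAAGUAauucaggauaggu
The arrays read the host mRNAs and not these microRNAs, so the level of miR-26 was not measured.

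**Figure D4:**
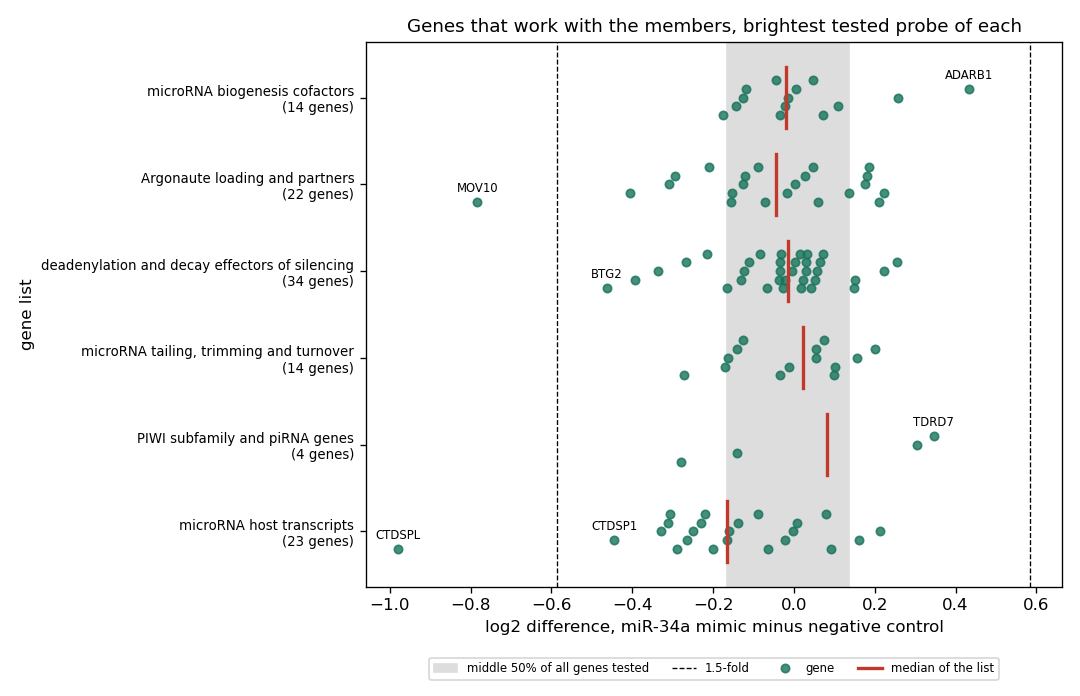
Difference between conditions (horizontal axis, log2 units, miR-34a mimic minus negative control) for each tested gene of the 6 lists, with red bars at the list medians, a gray band over the middle 50% of all genes tested and dashed lines at 1.5-fold. Of the genes shown, MOV10 at -0.78 and CTDSPL at -0.98 lie past the 1.5-fold line, and the medians lie between -0.17 for the host transcripts and 0.08 for the 4 PIWI-list genes.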

How the data were processed

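Per the file headers, the authors scanned the arrays and extracted signals with Agilent Feature Extraction 10.7.3.1. The deposited intensity values (processed signal, spatially detrended by that software, linear scale) were used. The 4 arrays lay on 1 slide read in 1 scan, so neither could be tested as a batch. In R 4.3.3 with limma 3.58.1, control and outlier-flagged spots were left out, spots of a probe were averaged, and log2 intensity minus the 75th percentile of each array was tested with lmFit and eBayes, over the probes that both arrays of either condition read as well above background. The authors' table of all 4 arrays was used as an alternative. Groups came from the sample titles. Nothing in the labels says that replicates came from separate cultures, so p-values rest on the spread between these samples alone, shared over all probes tested in limma. The 10 genes and the 6 lists were chosen with earlier results of these data known. All probes of the 10 genes were named. From each list, genes past 1.5-fold at any tested probe were named. So were the 2 with the largest differences at the brightest probe, among genes well above background on all 4 arrays. DGCR8, as the partner of DROSHA, and CTDSP2 were described in addition. Probe positions are those of the array annotation (hg19). RefSeq sequences carry GRCh38.p14 positions. Protein sequences were not used here. The fitting code was tested on simulated data.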

Additional observations from a re-analysis of the deposited data

How the results depend on the processing

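Under all 13 alternatives 0 probes of the 10 genes passed an adjusted p of 0.05, although over all probes a variance trend in limma called 1591 (7.41%), normexp background correction 877 (4.08%) and the methods' t-test 1. The count at an unadjusted p under 0.05 among probes that were lower was 2 in place of 1 under normexp, quantile normalization, the variance trend and the methods' t-test, and 0 to 2 with 1 array left out. The count among probes that were higher was 0 to 1 with 1 array left out. With 1 array left out, 0 to 1 of the 15 was lower by more than 1.5-fold (TNRC6C probe 2, without control replicate 1), and the lone array was assumed to vary like the other condition. With the replicate block, TNRC6A had an adjusted p of 0.242 and XPO5 probe 3 of 0.240 by limma, over all alternatives 0.0756 to 0.384 and 0.0858 to 0.377, and no call changed. Over the probes tested, the difference between replicates 1 and 2 was nearly uncorrelated between the conditions (correlation -0.0276). With 1 such difference per condition, this cannot show whether arrays of the same number were paired.

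The direction turned in probes near 0. With 1 array left out, EIF2C2 ran from -0.0019 to 0.034, EIF2C3 probe 2 from -0.043 to 0.051, EIF2C4 from -0.089 to 0.095, TNRC6C probe 1 from -0.16 to 0.16, DICER1 from -0.070 to 0.018 and DROSHA from -0.081 to 0.036. Under normexp EIF2C4 was at -0.010 and TNRC6C probe 1 at 0.031. After quantile normalization EIF2C3 probe 2 was at -0.0010 and DROSHA at 0.0091. With the 75th percentile over detected probes EIF2C3 probe 2 was at -0.0037 and EIF2C4 at -0.0051, and in the authors' table EIF2C4 was at -2e-04. The cause was not tested.

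Over all probes, 1030 were lower and 453 higher by more than 1.5-fold, against 185 and 68 under normexp, 775 and 702 after quantile normalization, 6823 and 2070 with no filter on dim probes, 512 and 285 for probes well above background on all 4 arrays, and 990 to 1421 and 527 to 567 with 1 array left out. The median of the Argonaute partner list was -0.057 under normexp, -0.0096 after quantile normalization, -0.052 with the percentile over detected probes and -0.076 to 0.012 with 1 array left out. The decay list was at -0.0025 under normexp and -0.037 to -0.0016 with 1 array left out, the tailing list at -0.023 and -0.045 to 0.061, and the host transcripts at -0.15 and -0.20 to -0.17. The PIWI list (0.08) was at -0.14 for genes above background on all 4 arrays, -0.061 under normexp, -0.038 with no filter and -0.0062 to 0.20 with 1 array left out. The cofactor list (-0.02) was at 0.045 after quantile normalization and -0.048 to -0.0086 with 1 array left out. With 2 arrays per condition an exact permutation test cannot give a p under 0.33.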
